A study of Homo sapiens with 12 samples.

Results

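This report covers 10 genes of the Argonaute phosphorylation cycle: the protein phosphatase 6 (PP6) catalytic subunit PPP6C, its ankyrin repeat subunits ANKRD28, ANKRD44 and ANKRD52, its regulatory subunits PPP6R1, PPP6R2 and PPP6R3, and the casein kinase 1 (CK1) genes CSNK1A1, CSNK1D and CSNK1E. They were chosen by name, and all 10 were found among the 15074 Ensembl genes of the tables. RNA came from HCT116, a human colorectal carcinoma cell line, in 4 forms with 3 libraries each: parental cells, AGO2_KO cells that lack AGO2 (knockout), and knockout cells given back an FH-tagged AGO2, of wild-type sequence in FH-WT cells and with the 5xA changes in FH-5xA cells. Every group is HCT116 grown in untreated wells seeded with 500000 cells and collected after 48 h, and both FH groups keep the AGO2 knockout background. Each group is 1 line, and the sources used here state neither its clonal origin nor the promoter behind the FH proteins. The design sets the 5xA protein beside wild-type AGO2 and beside its absence.

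AGO2 binds a microRNA and, with GW182 scaffold proteins, represses the mRNAs that the microRNA pairs with. Once AGO2 is on a target, CK1 adds phosphates to a cluster of serine and threonine residues near its C terminus, and the PP6 complex of ANKRD52 and PPP6C takes them off again, which frees AGO2 for further targets. The 5xA protein has alanine in place of residues of that cluster, so it cannot enter the cycle there. PP6 is a trimer of a catalytic, a regulatory and an ankyrin subunit, and it also acts on mitotic and inflammatory kinases; CK1 kinases further act in WNT signalling and the circadian clock.

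The values are the authors' deposited tables of 5 group comparisons, so levels of single libraries were not analysed here and whether single libraries of 2 groups overlap is not shown. Errors are standard errors (SE) derived from the deposited scores, and a gene was called at a false discovery rate under 0.05 over all genes of a table. They reflect the spread between wells of 1 line per group. In the authors' deposited table AGO2 mRNA stood at -0.35 ± 0.07 (log2) in knockout against parental cells, the direction its label gives; an mRNA level does not show whether protein was made. Of 8 epithelial marker genes 6 were measured, with EPCAM at a fitted 391 CPM (counts scaled to the library total) in parental cells, and 0 of 3 endothelial and 0 of 3 blood markers were in the tables. The authors' deposited table called 3 of the 6 epithelial markers lower in the knockout. Of 4 fibroblast markers only COL1A1, a collagen gene, was measured, at a fitted 1.83 CPM in parental, 2.76 in knockout, 2.89 with FH-WT and 4.99 with FH-5xA. In the authors' deposited tables COL1A1 was called higher in the knockout (0.59 ± 0.23), in FH-5xA against knockout (0.85 ± 0.22) and against parental in FH-WT (0.66 ± 0.25) and FH-5xA (1.45 ± 0.23). The part of these markers in the results below was not tested. In bulk RNA, fewer cells of a type and less RNA per cell cannot be told apart.

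PPP6R3 and CSNK1A1 were the members with the most RNA, and ANKRD44 had almost none. Per kilobase of annotated exon, the mean fitted level over the 4 groups was 44.2 CPM for PPP6R3, 26.7 for CSNK1A1, 16.4 for PPP6C, 14.4 for CSNK1E, 10.2 for PPP6R1, 9.20 for PPP6R2, 7.32 for ANKRD28, 7.21 for CSNK1D, 5.69 for ANKRD52 and 0.0797 for ANKRD44. The length used matters: over the longest transcript, CSNK1E stood at 32.3 CPM per kilobase beside 34.0 for CSNK1A1, and ANKRD28 at 12.6 beside 5.78 for ANKRD52. Among the 3 regulatory subunits PPP6R3 supplied 65.1% to 72.5% of the summed level per kilobase in the 4 groups. ANKRD44, at a mean of 1.02 CPM, lay in the lowest 2.33% of genes, and its differences have the widest errors.

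**Figure D1:**
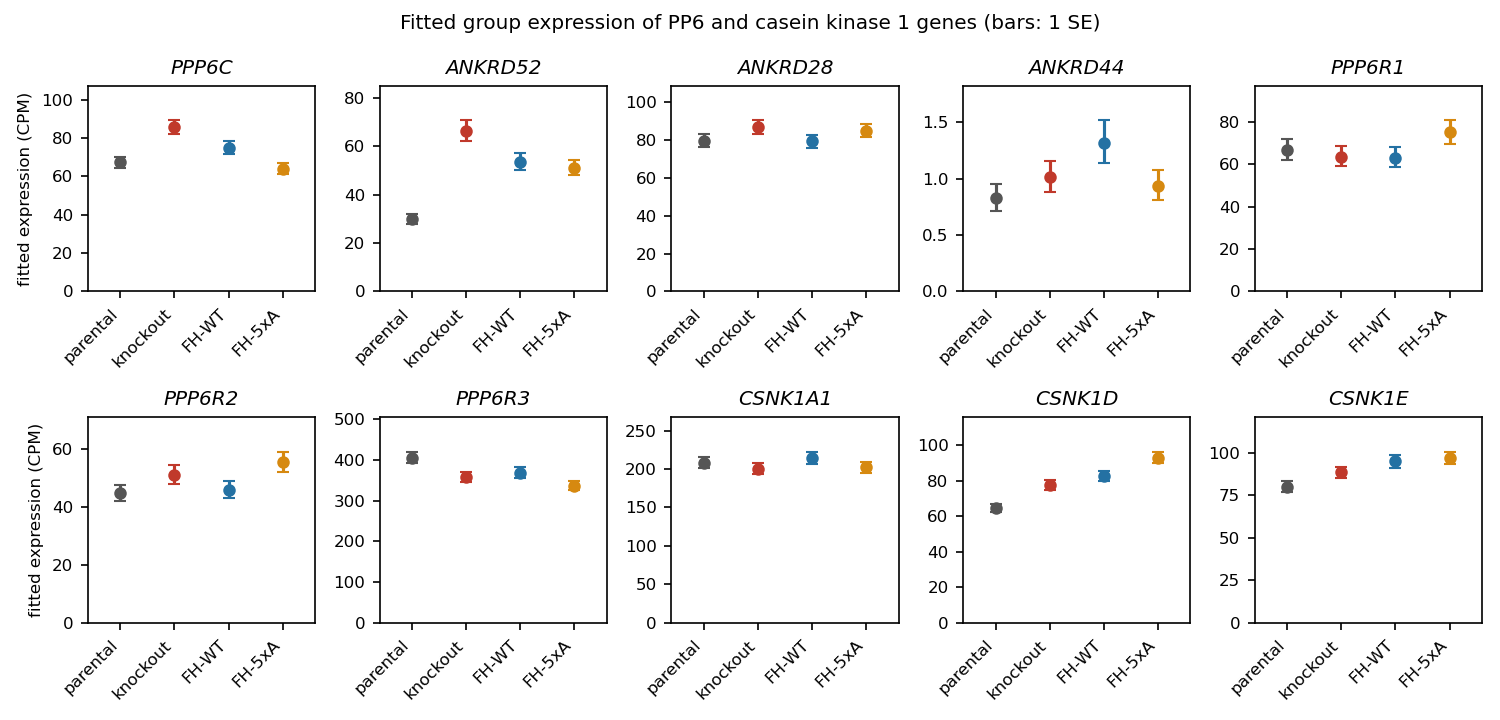
Fitted expression (CPM, y axis from 0) of each member in parental, knockout, FH-WT and FH-5xA cells, as points with bars of 1 SE derived from the deposited scores (3 libraries per group). ANKRD52 runs from 29.9 CPM in parental to 66.4 CPM in knockout cells, while CSNK1A1 stays between 200.1 and 215 CPM.

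Loss of AGO2 went with more ANKRD52, PPP6C and CSNK1D mRNA and less PPP6R3 mRNA. Of the 10 members, 3 were called higher and 1 lower in the knockout in the authors' deposited table. Over all genes the authors' deposited table called 44.4%, with 23.2% higher and 21.2% lower, so 4 of 10 is near the background and is not a result about the members as a set. The median of the members was 0.17 and that of all genes -0.01 (log2). With the deposited score referred to an F distribution with 1 and 8 degrees of freedom, which allows for the small number of libraries, PPP6R3 was no longer called (adjusted p = 0.0774) and the other 3 were. Over all genes 4902 of 15074 were called with it.

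**Figure D2:**
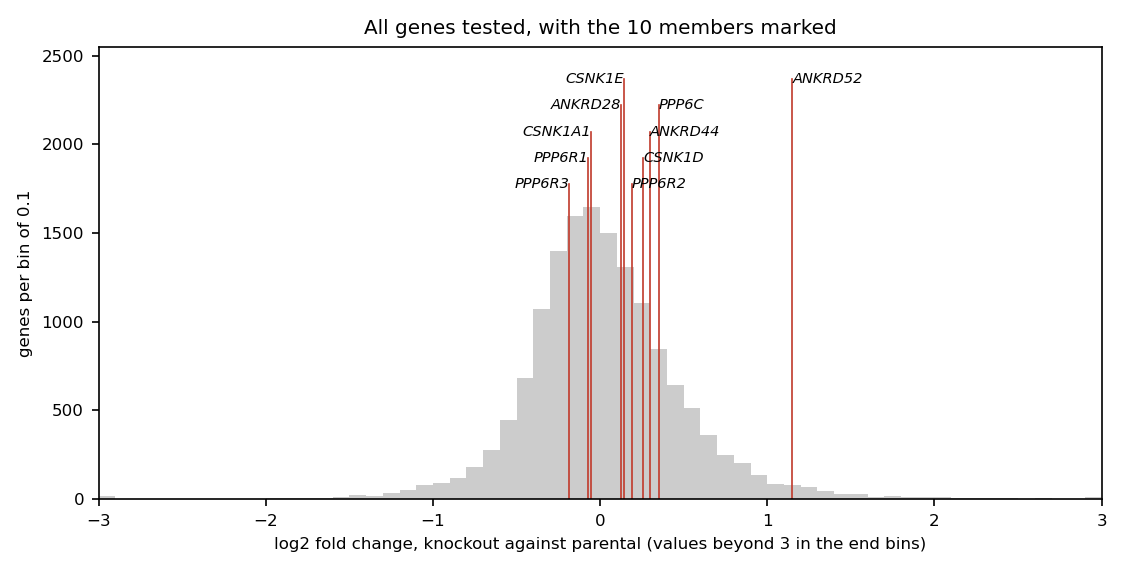
Number of genes per bin of 0.1 (y axis) by log2 fold change of knockout against parental cells (x axis) over all 15074 genes, with a red line for each member. ANKRD52 at 1.15 lies far right of the bulk, and the other 9 members lie between -0.19 and 0.35.

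ANKRD52 encodes the ankyrin subunit that brings PP6 to AGO2, and of the members it stood farthest from parental cells in all 3 other lines. The gene (ENSG00000139645) lies on chromosome 12, 56237807 to 56258391 (GRCh38, minus strand). Its fitted level was 29.9 CPM in parental cells (1 SE range 27.98 to 32.0), 66.4 in knockout (62.2 to 70.8), 53.5 with FH-WT (50.1 to 57.1) and 51.1 with FH-5xA (48.0 to 54.5). Parental cells were lowest and knockout cells highest, with the reconstituted lines between them; FH-5xA and FH-WT cells were not called apart, nor were FH-WT and knockout cells. In the authors' deposited tables ANKRD52 rose by 1.15 ± 0.13 (log2, 2.22-fold, false discovery rate 2.68e-16) in the knockout. Relative to parental cells the authors' deposited tables put FH-WT 0.84 ± 0.14 higher (1.21e-08) and FH-5xA 0.77 ± 0.13 higher (7.91e-08). By size of change it ranked 467 of 15074 genes in the knockout. Against the knockout, the authors' deposited tables had it at -0.31 ± 0.13 with FH-WT (false discovery rate 0.115, not called) and -0.38 ± 0.13 with FH-5xA (0.0406, called).

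The 3′ untranslated region (UTR) of ANKRD52, the part of an mRNA that microRNAs mostly pair with, holds many seed matches. Matches to bases 2 to 8 of 28 microRNAs, picked by name and not by measured level, were counted on the mRNA strand. The count used 1 annotated 3′ UTR per gene, for 11743 measured protein-coding genes (GENCODE 29, GRCh38). A match is a description of letters and not a shown site, and the levels of these microRNAs were not analysed here. ANKRD52 had 26 matches in 5335 bases, to 16 of the 28 microRNAs, and 13 of them were followed by A (8mer). Of 936 genes with a 3′ UTR within 25% of that length, 0.855% had as many, and their median was 13. The microRNAs with the most matches in ANKRD52 (3 each, miR-17-5p, miR-29a-3p and miR-34a-5p) and in PPP6C (2 each, miR-17-5p, miR-23a-3p and miR-221-3p) are shown with the seed, bases 2 to 8, in capitals (RefSeq, GRCh38.p14):
miR-17-5p: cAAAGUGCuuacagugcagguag
miR-29a-3p: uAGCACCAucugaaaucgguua
miR-34a-5p: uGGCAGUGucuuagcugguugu
miR-23a-3p: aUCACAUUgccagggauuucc
miR-221-3p: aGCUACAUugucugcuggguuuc

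None of these 5 seeds is shared with another of the 28. The 8mer matches to them in ANKRD52 and PPP6C follow, 5′ to 3′ on the mRNA strand, with the match in capitals, to show the letters behind the counts; of these motifs only that of miR-17-5p has such a match in both genes:
ANKRD52 and miR-17-5p, chr12:56243051-56243072: atttaggGCACTTTAaaggaga
ANKRD52 and miR-17-5p, chr12:56242375-56242396: taaccacGCACTTTAaccttgc
ANKRD52 and miR-221-3p, chr12:56241787-56241808: tctctaaATGTAGCAttgaatt
ANKRD52 and miR-34a-5p, chr12:56240157-56240178: cccgggtCACTGCCActgtcca
ANKRD52 and miR-29a-3p, chr12:56238128-56238149: ccacctgTGGTGCTAgtgttgg
PPP6C and miR-17-5p, chr9:125148240-125148261: taataaaGCACTTTAgcatctg

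The motif of miR-17-5p, GCACTTT, was in the 3′ UTRs of 6 of 10 members, of 57.8% of genes with a UTR length near that of ANKRD52, and of 41.1% of genes near that of PPP6C. At lengths near ANKRD52, TGGTGCT (miR-29a-3p) was in 38.1% of genes, CACTGCC (miR-34a-5p) in 31.5%, AATGTGA (miR-23a-3p) in 47.9% and ATGTAGC (miR-221-3p) in 22.5%. At lengths near PPP6C, the motif of miR-23a-3p was in 34.1% and that of miR-221-3p in 15.3%. These shares count genes with at least 1 match, and the share with as many per motif as ANKRD52 or PPP6C was not counted. The other motifs searched were CTACCTC (let-7a-5p), ATAAGCT (miR-21-5p), TTTGCAC (miR-19b-3p), GTGCAAT (miR-92a-3p), CAGTATT (miR-200b-3p), CAGTGTT (miR-200a-3p), TGCTGCT (miR-16-5p), TGTTTAC (miR-30c-5p), CTGAGCC (miR-24-3p), ACTGTGA (miR-27a-3p), TACTTGA (miR-26a-5p) and TGAATGT (miR-181a-5p). The rest were TGCACTG (miR-148a-3p), TAGGTCA (miR-192-5p), CTGTTAC (miR-194-5p), TCTTGCC (miR-31-5p), ATGCTGC (miR-103a-3p), CTCAGGG (miR-125b-5p), TTGCACT (miR-130b-3p), TTGCCAA (miR-182-5p), GTGCCAT (miR-183-5p), GTGCCAA (miR-96-5p) and ACGCACA (miR-210-3p). Some motifs share letters, such as those of miR-19b-3p and miR-130b-3p, and 2 of the 26 matches in ANKRD52 overlapped another. The motifs of miR-21-5p, miR-192-5p and miR-183-5p were in no member.

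Members differed in how many matches they held for their UTR length. PPP6C had 15 matches in 3100 bases, and 4.90% of 1756 genes of like length had as many. CSNK1D had 13 in 2114 bases (2.25% of 1955 genes), PPP6R3 11 in 2214 bases (7.35% of 1918) and PPP6R1 5 in 748 bases (9.89% of 1617). CSNK1A1 had 12 in 4656 bases and ANKRD28 9 in 3034 bases, close to the medians of 12 and 8 for genes of like length. ANKRD44 had 8 and CSNK1E 4. PPP6R2 had 2 in a chosen UTR of 127 bases and 7 in its longest of 857 bases; for ANKRD44 the longest UTR gave 17.

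**Figure D3:**
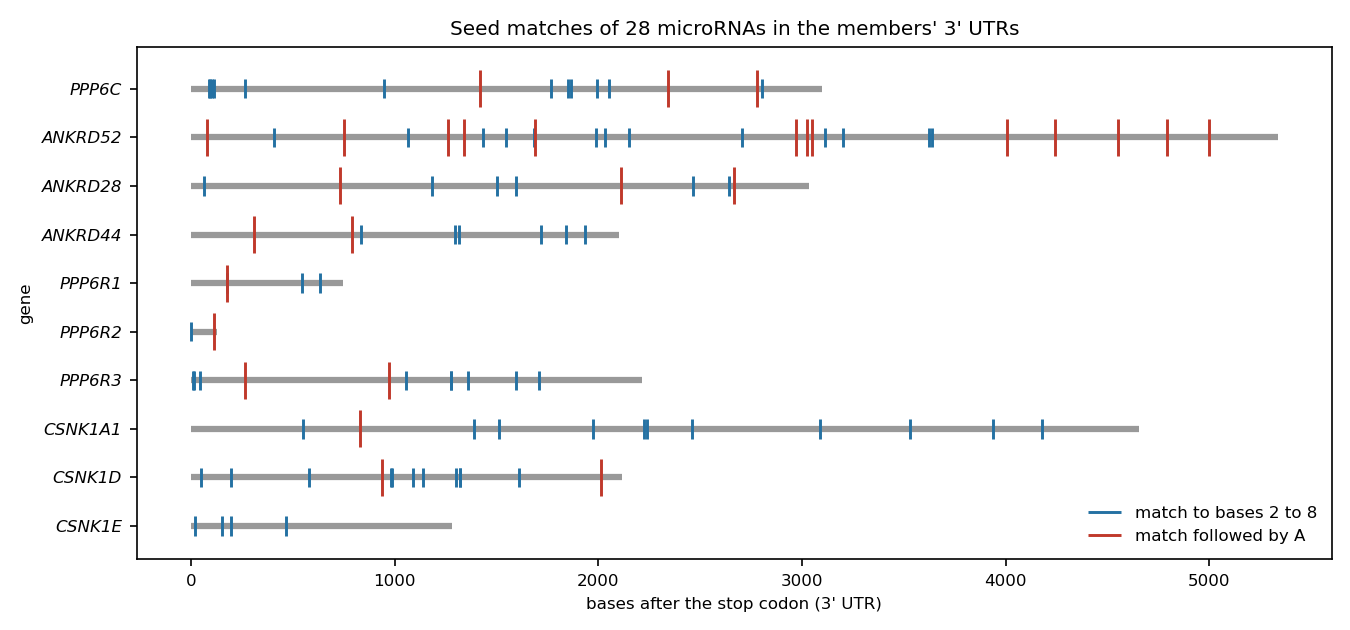
Positions of seed matches to 28 microRNAs along the 3′ UTR of each member, in bases after the stop codon (x axis); grey bars are the UTRs, short blue ticks are matches to bases 2 to 8 and tall red ticks are matches followed by A. ANKRD52 has 26 ticks, 13 of them red, over 5335 bases, and CSNK1A1 has 12, 1 of them red, over 4656 bases.

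PPP6C, the catalytic subunit shared by all PP6 forms (ENSG00000119414, chromosome 9, 125146573 to 125189939, minus strand), followed the same direction as ANKRD52 in the knockout at a smaller size. It stood at 67.3 CPM in parental (1 SE range 64.5 to 70.2), 85.7 in knockout (82.3 to 89.4), 75.0 with FH-WT (71.8 to 78.3) and 64.1 with FH-5xA (61.5 to 66.9). Knockout cells were highest, FH-5xA cells lowest and no neighbouring pair in this order was called. In the authors' deposited tables it rose by 0.35 ± 0.08 in the knockout (1.27-fold, false discovery rate 0.000187) and fell by 0.42 ± 0.09 with FH-5xA against knockout (5.54e-05). With FH-WT the authors' deposited tables gave -0.19 ± 0.09 against knockout (0.137) and 0.16 ± 0.09 against parental (0.155), and FH-5xA stood at -0.07 ± 0.09 against parental (0.541); none of these was called. Unlike ANKRD52, PPP6C was thus called against parental in neither reconstituted line.

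The other ankyrin subunits were not called in any comparison. ANKRD28, the paralog with the most RNA of the 3 in every group, was at 79.6 CPM in parental, 86.7 in knockout, 79.3 with FH-WT and 84.8 with FH-5xA. The authors' deposited table gave it 0.12 ± 0.09 in knockout against parental, with a 95% interval of -0.04 to 0.29 that lies below the interval of ANKRD52, 0.89 to 1.41. The share of ANKRD52 in the summed ankyrin subunit level per kilobase was 32.3% in parental, 49.2% in knockout, 46.0% with FH-WT and 43.3% with FH-5xA. With the longest transcript as length these shares were 22.0%, 36.4%, 33.4% and 31.1%. ANKRD44 was at 0.824, 1.01, 1.31 and 0.934 CPM in the same order, and its 0.67 ± 0.29 in FH-WT against parental missed the threshold in the authors' deposited table (false discovery rate 0.0608).

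Of the regulatory subunits, which set the PP6 substrates and location, PPP6R3 was lower in knockout and FH-5xA than in parental cells. It stood at 406 CPM in parental, 357 in knockout, 369 with FH-WT and 336 with FH-5xA, with 1 SE ranges of 392.1 to 420.0 in parental and 325 to 348 with FH-5xA. In the authors' deposited tables it fell by 0.19 ± 0.07 in the knockout (false discovery rate 0.0215) and by 0.27 ± 0.07 in FH-5xA against parental (0.000548), and was at -0.14 ± 0.07 in FH-WT against parental (0.118). In the order parental, FH-WT, knockout, FH-5xA no neighbouring pair was called. PPP6R2 was at 44.7 CPM in parental, 50.9 in knockout, 45.9 with FH-WT and 55.3 with FH-5xA. It was called once, at 0.31 ± 0.13 in FH-5xA against parental in the authors' deposited table (false discovery rate 0.0419), and that call was lost with the F distribution (adjusted p = 0.107) and when the median of its neighbours within 5 Mb was subtracted (0.24, adjusted p = 0.127). PPP6R1, at 66.9, 63.7, 63.2 and 75.1 CPM in parental, knockout, FH-WT and FH-5xA cells, was called in no table; its largest value in the authors' deposited tables was 0.24 ± 0.15 in FH-5xA against knockout (0.331).

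Of the CK1 genes, CSNK1D was called in 4 of the deposited comparisons, CSNK1E in 2 and CSNK1A1 in none. CSNK1A1, which encodes CK1 alpha, the kinase of the AGO2 cycle, stood at 208 CPM in parental, 200.1 in knockout, 215 with FH-WT and 202 with FH-5xA. The authors' deposited tables held it between -0.06 and 0.10 in all 5 comparisons, none called, and the 95% interval for knockout against parental ran from -0.20 to 0.09. Of its exon bases, 37.4% are shared with AC021078.1, a transcript on the same strand that the authors' deposited table has at 0.23 ± 0.09 in the knockout, so its count is uncertain.

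CSNK1D, which encodes CK1 delta, was higher in every line than in parental cells. Its fitted level was 64.8 CPM in parental (1 SE range 62.5 to 67.1), 77.5 in knockout (74.8 to 80.3), 82.6 with FH-WT (79.6 to 85.7) and 93.0 with FH-5xA (89.8 to 96.3). Parental and knockout cells differed, as did knockout and FH-5xA cells, and FH-WT was called against neither knockout nor FH-5xA. In the authors' deposited tables it rose by 0.26 ± 0.07 in the knockout (false discovery rate 0.0014) and by 0.26 ± 0.07 in FH-5xA against knockout (0.00515). Relative to parental cells the authors' deposited tables gave 0.35 ± 0.07 for FH-WT (2.14e-05) and 0.52 ± 0.07 for FH-5xA (1.11e-11). In FH-5xA against knockout its 107 neighbours within 5 Mb had a median of 0.20, and with it subtracted CSNK1D was at 0.07 (adjusted p = 0.631). In FH-5xA against parental their median was 0.07, which leaves 0.45 for CSNK1D. Its exons overlap those of SLC16A3 on the other strand over 482 bases (4.37%), and the authors' deposited tables had SLC16A3 between 0.02 and 0.07 in the 5 comparisons.

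CSNK1E, which encodes CK1 epsilon, the closest paralog of CK1 delta, stood at 80.2 CPM in parental, 88.6 in knockout, 95.1 with FH-WT and 97.0 with FH-5xA. No neighbouring pair in this order was called. Against parental it was called in both reconstituted lines: the authors' deposited tables gave 0.25 ± 0.08 for FH-WT (false discovery rate 0.0075), 0.27 ± 0.08 for FH-5xA (0.00149) and 0.14 ± 0.08 for the knockout (0.117, not called). The FH-WT call was lost with the F distribution (adjusted p = 0.0602). A readthrough gene, TPTEP2-CSNK1E, shares 21.1% of its exon bases. Exact words of 75 bases, the number of sequencing cycles, were shared with no other annotated transcript for 7 members, and with 1 other gene each for CSNK1A1 (34.8% of its words), CSNK1E (19.5%) and PPP6R1 (6.56%).

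Against the knockout, members were called with FH-5xA but not with FH-WT. Between FH-5xA and FH-WT themselves no member was called, so these counts do not show that the 2 lines differ. An effect of the returned AGO2 apart from other differences between the lines was not tested. With FH-WT against knockout, 0 of 10 were called by the likelihood ratio test of edgeR in the authors' deposited table, against 10.1% of all genes (4.21% higher, 5.85% lower), and 2 members (ANKRD52 and PPP6C) had an unadjusted p under 0.05. With FH-5xA against knockout, 3 of 10 were called in the authors' deposited table, against 11.3% of all genes: PPP6C and ANKRD52 lower (6.24% of genes) and CSNK1D higher (5.04%). All 3 of these calls were lost with the F distribution (adjusted p of 0.0717 for PPP6C, 0.202 for ANKRD52 and 0.134 for CSNK1D), while the call count over all genes went from 1699 to 92. The comparisons with the knockout share its 3 libraries with knockout against parental, so a low value after a high one is not independent of it.

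Taking the FH-WT and FH-5xA lines together against knockout, a derived contrast over 9 libraries, 3 of 10 members were called, against 12.5% of all genes (4.69% higher, 7.86% lower). ANKRD52 was at -0.34 ± 0.11 (Benjamini-Hochberg adjusted p = 0.0273), PPP6C at -0.31 ± 0.07 (0.00101) and CSNK1D at 0.18 ± 0.06 (0.0396), from the edgeR tables. These 3 calls were also lost with the F distribution, and that of CSNK1D with the median of all genes (adjusted p = 0.0606) or of its neighbours (0.06, adjusted p = 0.576) subtracted. The F distribution took the call count over all genes from 1891 to 186.

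Against parental cells, 3 of 10 members were called higher in FH-WT (ANKRD52, CSNK1D and CSNK1E) and 0 lower, and the authors' deposited table called 34.4% of all genes, 18.3% higher and 16.1% lower. In FH-5xA 4 were called higher (the same 3 and PPP6R2) and 1 lower (PPP6R3), and the authors' deposited table called 43.8% of all genes, 22.9% higher and 20.9% lower. ANKRD52 was the member farthest from parental in both.

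**Figure D4:**
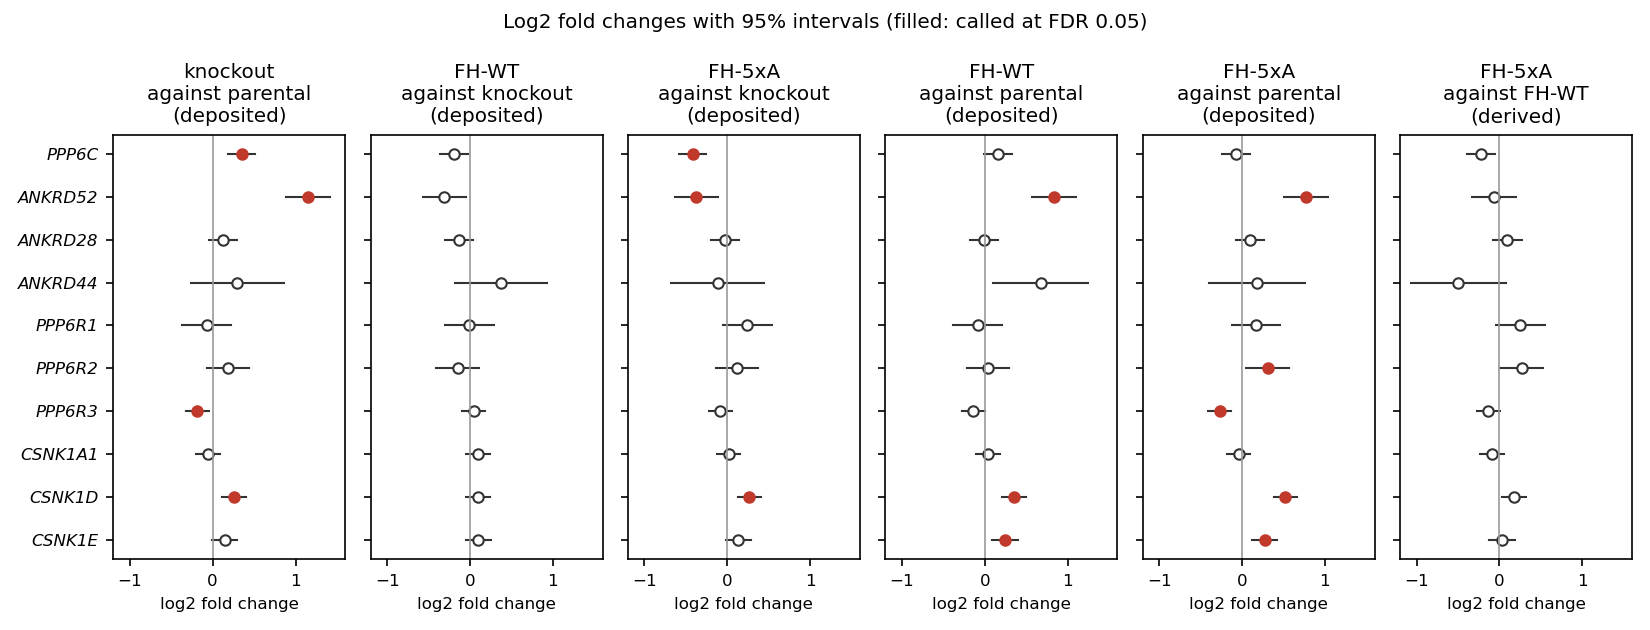
Log2 fold changes (x axis) of the 10 members (rows) with 95% intervals in the 5 deposited comparisons and the derived FH-5xA against FH-WT; filled red points have a false discovery rate below 0.05. ANKRD52 is filled in 4 panels, CSNK1D in 4, and no point is filled for FH-WT against knockout or FH-5xA against FH-WT.

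No member was called between FH-5xA and FH-WT. This derived difference, tested with chi-square on the edgeR tables and adjusted over 15072 genes, called 4.11% of all genes (1.98% higher, 2.13% lower) and 0 of 10 members, of which 3 had an unadjusted p under 0.05. PPP6C was at -0.23 ± 0.09 (95% interval -0.40 to -0.06, adjusted p = 0.109), CSNK1D at 0.17 ± 0.07 (0.03 to 0.32, adjusted p = 0.163) and PPP6R2 at 0.27 ± 0.13 (0.01 to 0.53, adjusted p = 0.235). For ANKRD52 the difference was -0.06 ± 0.13 (-0.33 to 0.20) and for CSNK1A1 -0.09 ± 0.07 (-0.23 to 0.06), so an equal level in both lines lies within their errors and so does a difference of up to these bounds. With the median of neighbours within 5 Mb subtracted, PPP6C (-0.27, adjusted p = 0.0395) and PPP6R3 (-0.23, adjusted p = 0.0301) passed. Over all genes 760 of 15010 passed with this setting and 620 of 15072 without it. The SE used there holds no error of the median, so these p-values are too small to that extent.

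Genes around ANKRD52 had a median near 0 in the knockout. The 136 measured within 5 Mb of it had a median of 0.01 on the log2 scale (quartiles -0.25 and 0.28), and 3 of them were as high or higher than ANKRD52. Single genes close by were high, such as DGKA (1.02 at -0.31 Mb) and RBMS2 (0.98 at 0.31 Mb). Others were low, such as PAN2 (-0.63 at 0.08 Mb) and CDK2 (-0.38 at -0.28 Mb). The medians for neighbours of PPP6C (115, median -0.03) and PPP6R3 (183, median -0.01) were also near 0. CSNK1A1 lies where 46 neighbours had a median of 0.17, PPP6R1 where 151 had -0.22 and PPP6R2 where 49 had -0.13. With these medians subtracted, 7 of 10 members were called in knockout against parental: PPP6R2 (0.32), CSNK1E (0.23) and CSNK1A1 (-0.22) joined the other 4. Over all genes 6514 of 15012 were called with this setting and 6695 of 15074 without it. The SE was left unchanged and holds no error of the median, so nothing about the members as a set is read from this count.

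**Figure D5:**
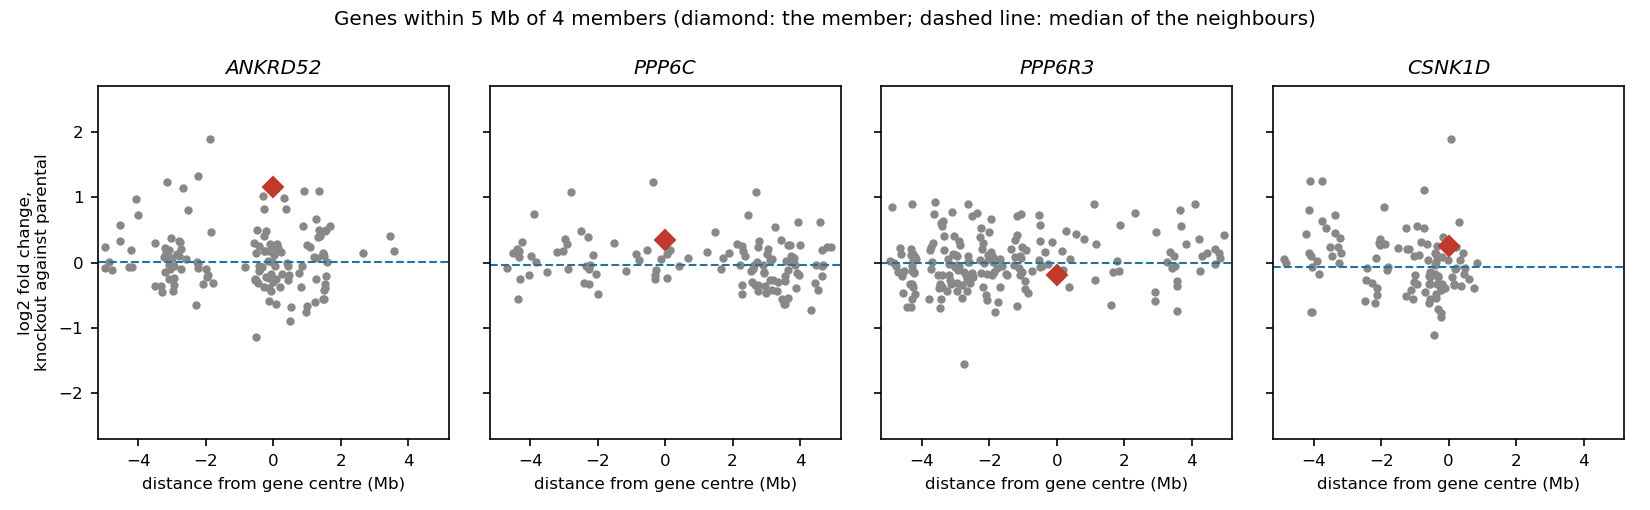
Log2 fold change of knockout against parental (y axis) for genes within 5 Mb of ANKRD52, PPP6C, PPP6R3 and CSNK1D, by distance from the centre of the member (x axis, Mb); the red diamond is the member and the dashed line the median of its neighbours. ANKRD52 at 1.15 stands above its neighbours' median of 0.01, and 3 of 136 neighbours reach its value.

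Genes of related phosphatases were called in both directions. The counts for this and the following lists stand against 44.4% of all genes called in knockout against parental, 23.2% higher and 21.2% lower, and nothing particular to a list is read from them. Of 10 measured catalytic subunits of the same phosphatase family, 1 was called higher in knockout against parental (PPP3CB, a calcineurin subunit, 0.36 ± 0.10) and 2 lower (PPP5C, -0.26 ± 0.10, and PPP1CC, -0.23 ± 0.09) in the authors' deposited table, with a list median of -0.07. Of 16 scaffold and regulatory subunits of PP2A and PP4, 5 were called higher and 1 lower there (median 0.00), among them the PP2A subunits PPP2R5B at 0.92 ± 0.20, PPP2R2A at 0.39 ± 0.08 and PPP2R5E at 0.41 ± 0.11 in the authors' deposited table. Of 5 biogenesis factors 1 was called, PPME1, which removes a methyl group from PP2A, at 0.46 ± 0.07 in the authors' deposited table (list median -0.04). The median of all genes was -0.01.

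Among 8 other kinases of the CK1 group, 4 were called higher and 1 lower in the knockout (median 0.14). The gamma isoforms CSNK1G3 and CSNK1G1 stood at 0.37 ± 0.09 and 0.23 ± 0.08, the tau tubulin kinase TTBK2 at 0.36 ± 0.09 and VRK1, a chromatin kinase of dividing cells, at -0.39 ± 0.08 in the authors' deposited table. Of 5 measured FAM83 proteins, which anchor CK1 in the cell, FAM83B was at 0.29 ± 0.08 and FAM83D, the spindle anchor, at -0.34 ± 0.08, both called in the authors' deposited table (list median 0.10). The catalytic CK2 gene CSNK2A2, of an unrelated kinase family, rose by 0.50 ± 0.09 and CSNK2A1 was at -0.04 ± 0.08 in the authors' deposited table (list median 0.23).

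Genes whose proteins meet these enzymes were also measured. Of 17 CK1 substrates and partners in WNT signalling and the clock, 7 were called higher and 0 lower in the knockout (median 0.20). Over all genes 44.4% were called, 23.2% higher and 21.2% lower (median -0.01). The total share of the list is thus near the background, but its calls were all higher. That direction was not tested for the list. The smallest p-values were those of the clock gene PER2 at 0.998 ± 0.13, GSK3B at 0.65 ± 0.09, PER1 at 0.71 ± 0.11 and CRY2 at 0.70 ± 0.12 in the authors' deposited table. Of 8 PP6 substrates and partners 2 were called higher and 3 lower (median -0.13): the mitotic genes NCAPG at -0.51 ± 0.08, AURKA at -0.36 ± 0.06 and TPX2 at -0.36 ± 0.08 were lower and MOB1B, of the Hippo pathway, was at 0.32 ± 0.10 in the authors' deposited table. Of the 7 Argonaute and GW182 genes 6 were called higher and AGO2 lower in the authors' deposited table (median 0.41).

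Genes were also ranked by how near they came to the pattern of ANKRD52 over the 4 groups. Likeness was measured as the Euclidean distance over the 3 log2 fold changes against parental, among 11681 other protein-coding genes that averaged 1 CPM or more. The nearest were SP100, a nuclear body protein (distance 0.07; values of 1.13, 0.91 and 0.79 for knockout, FH-WT and FH-5xA), ATP8B4, an ATPase of the flippase family (0.09; 1.19, 0.77 and 0.74), and ACER2, a ceramidase (0.09; 1.07, 0.80 and 0.74), in the authors' deposited tables. Within a distance of 0.1 there were 3 genes for ANKRD52 and 25 for PPP6C. That distance is below the SE of ANKRD52 in each of the 3 comparisons (0.13 to 0.14) and those of ATP8B4 (0.22 to 0.25). Genes are also sparser at large changes, so these counts cannot show how rare a pattern is. The nearest to PPP6C were the phosphatase CDC14A (distance 0.04), the RNA methyltransferase TRDMT1 (0.05) and the deubiquitinase STAMBPL1 (0.05).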

How the data were processed

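Whole-transcriptome RNA-seq of 12 libraries was read from 5 tables. Each deposited row holds, per the file headers, the likelihood ratio score of a gene with its p-value and false discovery rate, the log2 fold change and the mean log2 CPM (identical in all 5). The submitters' processing notes name edgeR 3.8.6, featureCounts 1.4.6, Cufflinks 2.2.1 and TopHat2 2.0.12, and hg38/GRCh38. The sources used here state no filter, normalization factor, annotation or strand setting. Ribosomal RNA was depleted and libraries were stranded, per the labels. Library depth is unknown.

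The SE is the absolute log2 fold change over the root of the deposited score; the p-value equals the chi-square tail (1 degree of freedom) to within 7.36e-15. Group levels were fitted so that their mean CPM equals the deposited mean. The 5 squared SEs were solved by least squares for a variance per group, which gave the 2 derived contrasts (undefined in 2 genes). This was also run on simulated data at an assumed library depth, and its outcome is not used as support here. The simulated test used the true spread between libraries, so it cannot show errors from a spread estimated from 3 libraries per group. Ensembl ids were matched to symbols (14974 of 15074) and GENCODE 29 (15029). Members, lists, microRNAs and tests were chosen with earlier results of these data known. All members are named; of each list up to 4 genes with the smallest p in knockout against parental, and for ANKRD52 and PPP6C the 3 genes nearest in pattern. UTRs are of the principal transcript. Python 3.11.15 with scipy 1.17.1 was used. Alternatives were the F distribution, a 1 CPM filter, centring on the table or on neighbours, leaving out chromosome 7, Bonferroni adjustment, equal group variances, and other transcript lengths and UTRs.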

Additional observations from a re-analysis of the deposited data

Results flagged for a closer look

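In the lists of related and marker genes, 8 genes had a change against knockout that differed between the FH-5xA and the FH-WT line by the derived test (chi-square on the edgeR tables, Benjamini-Hochberg over 15072 genes). This contrast called 4.11% of all genes, 1.98% higher and 2.13% lower. The lists of related genes held 10, 16, 5, 8, 5, 2, 17, 8 and 7 measured genes, and the marker lists 6 epithelial genes and 1 fibroblast gene. Of the related genes 3 were higher with FH-5xA: the difference was 0.59 ± 0.11 for the clock gene PER1 (adjusted p = 0.000206), 0.36 ± 0.08 for the CK1 anchor FAM83B (adjusted p = 0.00226) and 0.36 ± 0.11 for the clock gene CRY1 (adjusted p = 0.0433). The other 3 were lower: NCAPG, a condensin subunit, was at -0.31 ± 0.08 (adjusted p = 0.00754), AURKA, the mitotic kinase that PP6 opposes, at -0.25 ± 0.07 (adjusted p = 0.0126) and the CK1 group kinase CSNK1A1L at -0.49 ± 0.16 (adjusted p = 0.0428). All 8 genes were picked for this section after their values were seen, because they passed. CRY1 and CSNK1A1L also fall outside the naming rule. Of the markers, the epithelial gene CDH1 was at 0.43 ± 0.10 (adjusted p = 0.00197) and the fibroblast gene COL1A1 at 0.79 ± 0.23 (adjusted p = 0.0244). With the F distribution 0 genes of the whole table were called in this contrast.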

How the results depend on the processing

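No paired analysis was possible because the tables hold no values per library; for the same reason no replicate was left out. The 1 CPM filter, leaving out chromosome 7 and equal group variances changed no call of a member. The number of members called moved by more than 1.5 times as follows. With the F distribution it went from 3 to 0 for FH-5xA against knockout and from 3 to 0 for both reconstituted lines against knockout, with 3 members at an unadjusted p under 0.05 in each. Over all genes 92 and 186 of 15072 were then called in these contrasts. With Bonferroni adjustment 1 member (ANKRD52) remained in knockout against parental, 1 (PPP6C) in FH-5xA against knockout, 2 (ANKRD52 and CSNK1D) in FH-5xA against parental and 0 in both lines against knockout (3 unadjusted). In the same order 2435, 302 and 2358 of 15074 genes and 339 of 15072 genes remained. With neighbours subtracted the count was 7 in knockout against parental (6514 of 15012 genes) and 2 between FH-5xA and FH-WT (760 of 15010 genes). Signs turned only with neighbours subtracted, in 6 values that were not called: PPP6R1 became 0.15 in knockout against parental and 0.0682 in FH-WT against parental, ANKRD28 became 0.00693 in FH-5xA against knockout and 0.0107 in FH-WT against parental, PPP6R2 became -0.0537 in FH-5xA against knockout, and CSNK1A1 became -0.0208 in FH-WT against parental. The cause of these moves was not tested. ANKRD52 in knockout against parental was called under all 6 alternatives run on it. Depth per library is unknown, which limits what can be said of ANKRD44.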
